A study of Mus musculus with 6 samples.

Results

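Aortas of vitamin E-treated ApoE-/- mice were compared with aortas of untreated ApoE-/- mice. The comparison held 4 of the 6 arrays of the series, 2 per group, which were chosen by their titles. Probe sets were kept when the mean signal of one of these groups reached 100, which gave 17368 of 45101, and those with 1 gene symbol stood for 10338 genes. Mice of both groups lacked ApoE on the background of strain C57BL/6J (B6), ate an AIN-93-based chow with 7% fat and 0.15% cholesterol, and gave their aortas at an age of 32 to 34 weeks. The treated mice received vitamin E (tocopherol acetate) in the diet at 2000 IU/kg for 7 months. The untreated mice are labelled as having atherosclerosis and received no treatment. The remaining 2 arrays, from nontransgenic B6 mice of the same age and diet, entered the estimate of the spread and are given where they serve as a reference. RNA of 3 aortas was pooled on each array, so the spread between single mice was not measured. The labels do not say whether the vitamin E arrays were hybridized together with the others, so a difference between hybridization runs and an effect of vitamin E cannot be told apart here. Signal intensities are given for the 2 vitamin E arrays against the 2 untreated arrays.

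Apolipoprotein E is the ligand through which remnant lipoproteins are taken up from the blood, and mice that lack it accumulate cholesterol and form plaques of macrophage foam cells, smooth muscle cells and matrix. Vitamin E is a fat-soluble antioxidant that travels in lipoproteins and ends chain reactions of lipid peroxidation. An array of whole aorta reads intima, media, adventitia and plaque together with any tissue that stayed attached at dissection. In such RNA, fewer cells of a type and less RNA per cell cannot be told apart.

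Apoe, the disrupted gene, read 40.5 and 45.3 against 93.2 and 57.4, where the B6 arrays had 5209 and 5432. It stayed under the minimum of 100 in both ApoE-/- groups and was not tested. The 2 arrays of a group correlated at r = 0.984 with vitamin E and 0.991 without, and 109 and 54 probe sets differed by over 2-fold between them. Measures of RNA lay apart between the groups. The 3'/5' ratio of Gapdh was 1.15 and 1.24 on the vitamin E arrays and 1.03 and 1.06 on the untreated arrays, that of Actb was 1.64 and 1.64 against 1.78 and 1.88, and the signal of the 18S control was 149 and 108 against 63.6 and 68.5. Their part in the results was not tested. Acta2, the actin of smooth muscle cells, lay between 8791 and 9773 on the 4 arrays, while Ucp1 of brown fat lay between 6371 and 7911 and Scgb1a1 of airways between 9903 and 11333.

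With vitamin E, 1510 probe sets were higher (8.69%) and 1264 lower (7.28%) at an adjusted p under 0.05 from limma, the threshold for a call. Counted by genes with 1 probe set each, 859 (8.31%) were called higher and 823 (7.96%) lower, and these shares are the background for every list below. Most calls were small, with 1589 under 1.5-fold, 270 at least 2-fold higher and 102 at least 2-fold lower, together 2.14% of those tested. Among genes 1.4% were at least 2-fold higher and 0.619% lower. At the thresholds of the study's methods, an unadjusted p of at most 0.01 and at least 2-fold, limma passed 375 probe sets (2.16%). The arrays of the groups did not overlap for 59.4% of all probe sets and 60.2% of all genes tested, so a lack of overlap alone is common here. It held for all 2774 calls, so where it is given below for called genes it adds nothing to the call. Through the vitamin E group alone 934 probe sets passed the minimum signal, of which 312 were called higher, and through the untreated group alone 609, of which 96 were called lower. Such probe sets could be called in that direction only. With each array centred on its median 899 were higher and 1857 lower. Without the first untreated array 847 probe sets were called and without the second 799, and without the first or the second B6 array 1790 and 1811. Genes were then read in 52 lists by function, cell type or tissue. The lists with at least 7 genes called higher were those of skeletal muscle, oesophageal and basal stratified epithelium, liver, T cells, cell cycle, sympathetic neurons, neurons in general and immediate early genes. Those with at least 7 called lower were of heart muscle, elastic fibre, collagens, smooth muscle, endothelium, interferon-stimulated genes, fatty acid synthesis and sterol synthesis. The plot of list medians shows this order. The lists share 12 genes.

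**Figure D1:**
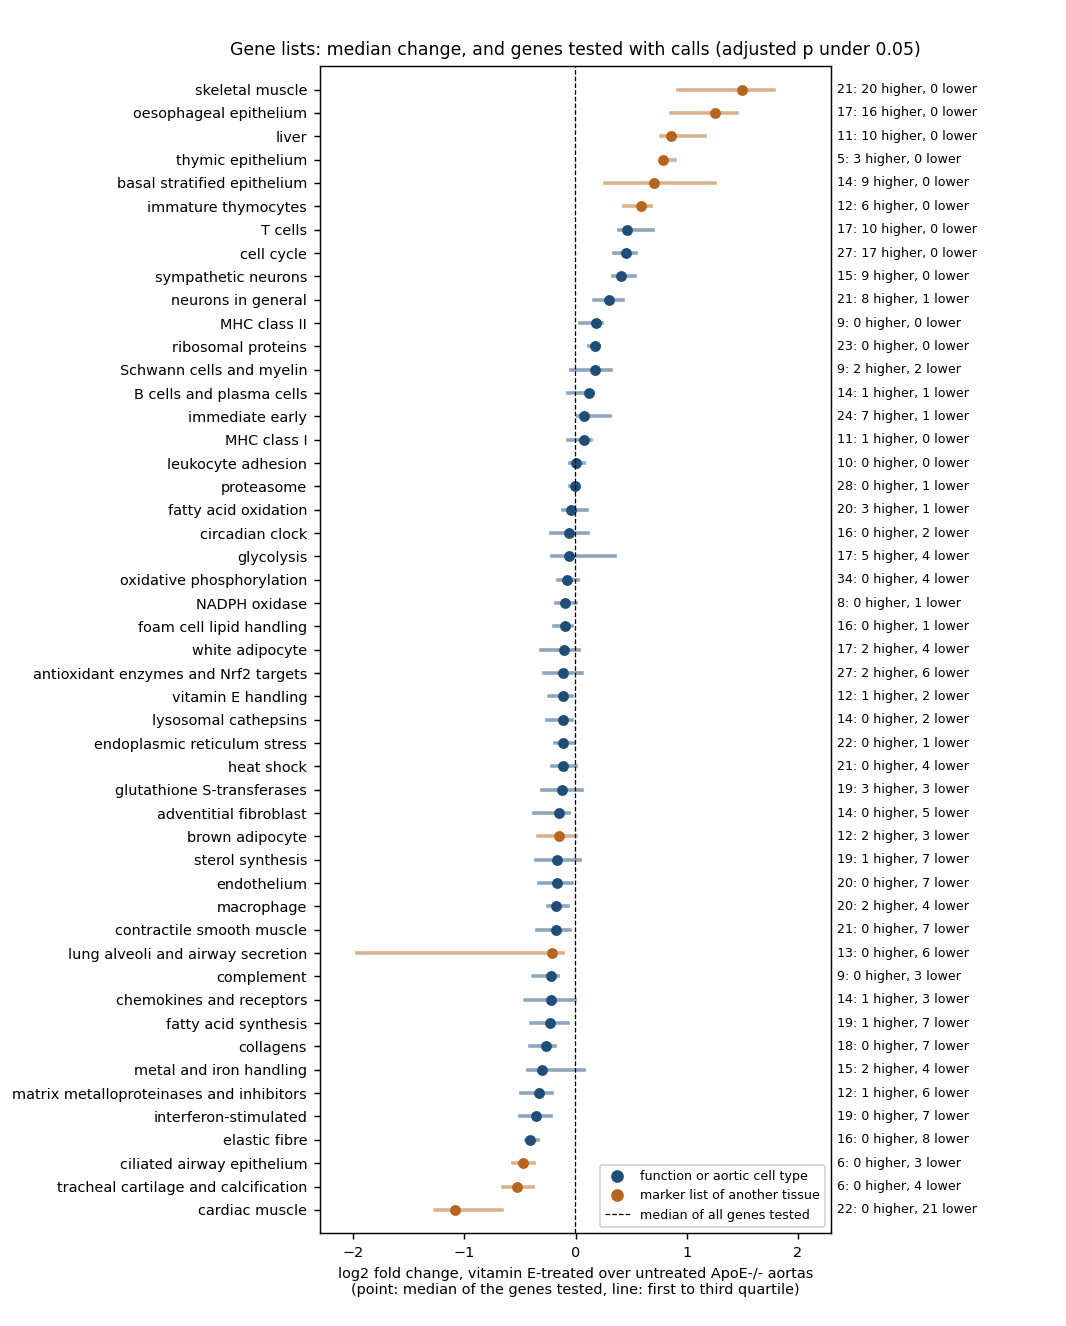
Median log2 fold change between vitamin E-treated and untreated ApoE-/- aortas (x axis) for each gene list with at least 5 genes tested (y axis). Points are medians over the genes of a list, lines run from the first to the third quartile, and the text on the right gives the genes tested and how many were called higher and lower. Medians run from -1.08 for cardiac muscle to 1.5 for skeletal muscle, and the dashed line marks the median of all genes tested.

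The largest median rises were those of the lists of skeletal muscle, oesophageal epithelium and liver, apart from the single parathyroid gene, and the largest median fall was that of cardiac muscle. These lists were drawn up as markers of neighbouring tissues, but cells of the aortic wall can express members too, and where in the samples they were expressed was not measured on the arrays. Sprr3 of the oesophageal list, a cornified envelope protein, read 3439.6 and 3527 on the vitamin E arrays and 1079.5 and 1059 on the untreated arrays (log2 fold change 1.70, adjusted p = 1.5e-05), and Pln of the cardiac list, the calcium pump regulator phospholamban that smooth muscle also makes, read 926 and 959 against 2686 and 2856 (log2 fold change -1.55, adjusted p = 2.1e-05). The study also stained aortic sections for both proteins. It reports Sprr3 in intima and adjacent media, with more after vitamin E, and Pln in the media, with less after vitamin E. Of skeletal muscle genes, of which Ampd1 passed the minimum through the vitamin E group alone, 20 of 21 tested rose and 0 fell. Their summed signal was 78083 and 89749 against 38834 and 38587. Of cardiac muscle genes, 21 of 22 fell and 0 rose, and their sum was 44357 and 48088 against 80478 and 80837. Both lists hold sarcomere genes, and they moved in opposite directions. Myl2, the ventricular regulatory light chain, read 958 and 918 against 3894 and 3851, which was 4.13-fold lower (log2 fold change -2.05, SE 0.07, adjusted p = 1.5e-05). Fhl2, a LIM protein of the heart, read 252 and 279 against 988 and 1079 (log2 fold change -1.96, adjusted p = 8.6e-05). In both genes each vitamin E array lay far below each untreated array. Nppa, which encodes atrial natriuretic peptide, read 5291 and 6352 against 9005 and 9347 and was 1.58-fold lower (adjusted p = 0.0048). The one cardiac gene tested that was not called was Myl3, the ventricular essential light chain (log2 fold change -0.16, adjusted p = 0.14), and the transcription factor genes Nkx2-5 and Gata4 passed the minimum through the untreated group alone.

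Of glycolysis genes 5 of 17 rose and 4 fell, and isoforms of phosphofructokinase and of phosphoglycerate mutase moved in opposite directions. Pygm, the muscle glycogen phosphorylase, read 1759 and 1908 on the vitamin E arrays and 1038 and 923 on the untreated arrays, and it was 1.87-fold higher (log2 fold change 0.90, SE 0.08, adjusted p = 0.00060). Eno3, Pfkm and Pgam2, the muscle forms of enolase, phosphofructokinase and phosphoglycerate mutase, rose with log2 fold changes of 0.42, 0.38 and 0.36. Aldoc, an aldolase of brain and other tissues, rose too (log2 fold change 0.71, adjusted p = 0.0083). Pfkl, the liver type phosphofructokinase, went the other way with 2929 and 3301 against 4963 and 5027, which was 1.61-fold lower (log2 fold change -0.68, SE 0.07, adjusted p = 0.0014). Hk2, Pgam1 and Pfkp fell as well (log2 fold changes -0.42, -0.35 and -0.22). The 2 brightest members, Aldoa and Ldha, were not called (adjusted p = 0.58 and 0.90). The rises stood beside the rise of the skeletal muscle list, and its part in them was not tested. Without the first or the second untreated array 1 and 2 glycolysis genes were higher and 1 and 2 lower.

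Squamous epithelium lines the oesophagus and other surfaces. Of genes listed for the oesophageal epithelium, 16 of 17 tested rose, with a summed signal of 49735 and 55095 on the vitamin E arrays and 23997 and 23968 on the untreated arrays. Of genes of the basal layer 9 of 14 rose, at a median log2 fold change of 0.70, where the oesophageal list had 1.25. Col17a1 of the basal list passed the minimum through the vitamin E group alone. Krt5 and Krt14, the paired keratins of basal cells, were 1.98-fold higher and 2.96-fold higher (adjusted p = 0.00019 and 0.0011), and Sfn, the epithelial 14-3-3 protein, read 296 and 357 against 102 and 118. Perp and Dsp, proteins of desmosomes, rose (log2 fold changes 0.64 and 0.51), and Itgb4, Jup and Itga6 were not called (adjusted p = 0.76, 0.56 and 0.25). Ivl, which encodes involucrin of the cornified envelope, read 12.6 and 23.0 against 15.5 and 2.13.

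Of genes of lung alveoli and airway secretion 6 of 13 tested fell and none rose, and the fall lay in alveolar genes. Sftpc, surfactant protein C of alveolar type II cells, read 95.6 and 103 on the vitamin E arrays and 1402 and 1427 on the untreated arrays, which was 14.2-fold lower (log2 fold change -3.83, SE 0.07, adjusted p = 7.2e-07) and the largest fall among all list members tested. Ager, a membrane receptor of alveolar type I cells, read 58.6 and 43.3 against 223 and 216 (log2 fold change -2.12, adjusted p = 0.00028). Cxcl15, a chemokine of lung epithelium, was under the floor of 20 on both vitamin E arrays, against 155 and 123 on the untreated arrays, so it was at least 6.91-fold lower (adjusted p = 0.00019). Airway secretory genes were not called. Scgb1a1, the secretoglobin of club cells, read 9969 and 9903 against 10882 and 11333 (adjusted p = 0.17). Bpifa1, a secreted protein of upper airways, read 11360 and 13758 against 11141 and 10893 (adjusted p = 0.25). Ciliated cell genes were lower for 3 of 6, among them Dynlrb2, a dynein light chain, and Mlf1 (log2 fold changes -0.57 and -0.56), whereas Foxj1, the defining transcription factor gene of ciliated cells, ranged from 49.5 to 92.8 on the 4 arrays. Of the 6, 2 passed through the untreated group alone, among them Ttc25, the third gene called lower. Of the lung genes 4, Sftpc and Ager among them, passed through the untreated group alone, and the sum of the list was 40580 and 45983 against 46479 and 46959.

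Of liver genes 10 of 11 tested rose, with a sum of 4123 and 4515 on the vitamin E arrays and 2378 and 2489 on the untreated arrays. Among them Hpd, Apoa1 and Cyp3a11 passed the minimum through the vitamin E group alone and could only be called higher. Alb, which encodes serum albumin, read 379 and 485 against 243 and 273, and on the B6 arrays it read 6097 and 6107. Ttr, the carrier of thyroxine and retinol, read 752 and 706 against 414 and 390 and was 1.81-fold higher (log2 fold change 0.86, SE 0.07, adjusted p = 0.00044). Another 13 liver genes of the list, the fibrinogen chain Fgb among them, stayed under the minimum. Pth, which encodes parathyroid hormone, passed through the vitamin E group alone. It read 215 and 250.2 against 25.4 and 15.7, and since 1 untreated array was under the floor of 20 the fitted fold (log2 fold change 3.37, adjusted p = 0.00025) depends on that floor. Tg, which encodes thyroglobulin, read 9.23 and 19.5 against 18.1 and 24.6. Cartilage genes fell, 4 of 6 tested, for instance Cytl1, a secreted protein of cartilage, with 1199 and 1263 against 1742 and 1943 (log2 fold change -0.58, adjusted p = 0.0029). Of these 6 genes, Acan passed through the untreated group alone. Their sum was 6301 and 7429 against 9025 and 9358, while Col2a1, the collagen that defines cartilage, ranged from 51.8 to 102 on the 4 arrays. With the first or the second untreated array left out, 2 and 1 cartilage genes and 2 and 1 ciliated cell genes were lower. The 2 adrenal list genes tested fell, Mrap and Fdx1 (log2 fold changes -0.52 and -0.25), but adipose tissue and other cells express them too. Under the minimum, Cyp11b1, a steroid enzyme of the adrenal cortex, read 13.9 and 14.6 against 68.7 and 64.1. Hsd3b1 read 1.91 and 10.9 against 108.5 and 84.8, and Cyp21a1, Star and Mc2r were also lower on both vitamin E arrays. Cyp11a1 went the other way, with 41.3 and 58.7 against 36.2 and 35.1, and the groups overlapped for Cyp11b2 and Nr5a1. All kidney genes were under the minimum. How much the content of the samples contributed to the lists described next was not tested.

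**Figure D2:**
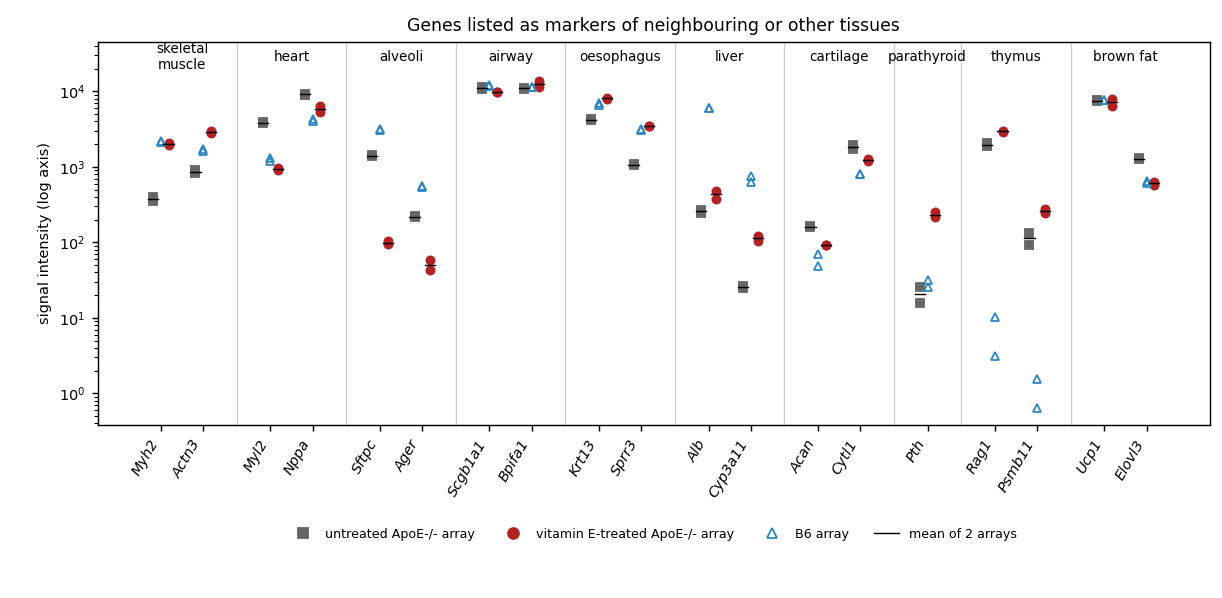
Signal intensity (y axis, log scale) of genes listed as markers of neighbouring or other tissues (x axis) on each array, with the mean of the 2 arrays of the ApoE-/- groups as a bar. Squares are untreated ApoE-/-, circles vitamin E-treated ApoE-/- and triangles B6 aortas. Myh2, Krt13, Alb, Pth and Rag1 lie higher with vitamin E, Myl2, Sftpc and Cytl1 lie lower, and Scgb1a1 and Ucp1 lie together.

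Thymocyte and T cell genes rose with vitamin E. Of T cell genes, 10 of 17 tested rose and none was called lower, with a median log2 fold change of 0.46 against -0.003 for all genes tested. Bcl11b, a transcription factor needed for T lineage commitment, read 1642 and 1697 on the vitamin E arrays and 752 and 877 on the untreated arrays, and it was 2.06-fold higher (log2 fold change 1.04, SE 0.09, adjusted p = 0.00052). Lat, the adaptor that links the T cell receptor to its signals, read 1637 and 1651 against 908 and 959.9 (log2 fold change 0.82, adjusted p = 0.00061). Cd3d, a chain of the receptor complex, read 1559 and 1712 against 981 and 935 (log2 fold change 0.77, adjusted p = 0.00083). Every vitamin E array lay above every untreated array for these genes. Cd8a and Cd8b1, the coreceptor chains of cytotoxic T cells, were 1.68-fold higher and 1.35-fold higher, and of the 5 probe sets of Cd8a 3 were called higher and none lower. For Cd8b protein the study reports no significant change with vitamin E on immunoblots. Ccr7, which guides naive cells into lymph nodes, and Zap70, a kinase of T cell receptor signalling, were not called (adjusted p = 0.96 and 0.17). When the first or the second untreated array was left out, 6 and 5 T cell genes were higher, and with median centring 7.

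Of the genes of immature thymocytes, 6 of 12 rose, and so did 3 of 5 genes of the thymic epithelium. Among the genes tested in these lists, 2 and 2 passed the minimum through the vitamin E group alone. Rag1, the recombinase that assembles antigen receptors in developing lymphocytes, read 2939.8 and 3019.6 on the vitamin E arrays and 1887 and 2060.1 on the untreated arrays, which was 1.51-fold higher (log2 fold change 0.60, SE 0.08, adjusted p = 0.0032). On the B6 arrays it read 10.4 and 3.14. Satb1, a chromatin organizer of thymocytes, read 3773 and 4052 against 2131 and 2219 (log2 fold change 0.85, adjusted p = 0.00035). Ccr9, the receptor for the thymic chemokine Ccl25, read 1583 and 1406 against 789 and 757 (log2 fold change 0.95, adjusted p = 0.00063). Ccl25 itself, secreted by thymic epithelium, read 887 and 889.7 against 469.9 and 489.7 (log2 fold change 0.89, adjusted p = 0.012). Psmb11, the proteasome subunit of cortical thymic epithelial cells, read 243 and 278 against 134 and 93.6, and the B6 arrays had 0.637 and 1.55. Both vitamin E arrays were above both untreated arrays in each of these thymus genes, as for every gene called higher. Foxn1, the master regulator of thymic epithelium, read 38.4 and 36.4 against 33.8 and 23.2. Dntt, the polymerase that adds nucleotides at receptor joints, had 1873 and 1832 on the vitamin E arrays but 312 and 1075 on the untreated arrays and was not called (adjusted p = 0.054). That is its brightest probe set, and of the 3 tested 2 were called higher. Without the first or the second untreated array 3 and 4 thymocyte genes and 2 and 1 genes of thymic epithelium were higher. The summed signal of the thymocyte list was 15708 and 15463 against 9484 and 10291, and that of thymic epithelium 2478 and 2576 against 1403 and 1398.

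Cell cycle genes rose beside them, 17 of 27 tested (63%), none fell, and the median log2 fold change was 0.45. The rise covered DNA replication and mitosis. Mcm7, a subunit of the replicative helicase, read 2009 and 2105 on the vitamin E arrays and 1443 and 1372 on the untreated arrays (log2 fold change 0.55, adjusted p = 0.0027). Rrm2, the small subunit of ribonucleotide reductase, read 1307 and 1217 against 887 and 849.7 (log2 fold change 0.54, adjusted p = 0.0046). Birc5, which encodes survivin of the chromosomal passenger complex, read 744 and 754 against 389 and 355 and was 2.02-fold higher (log2 fold change 1.01, SE 0.13, adjusted p = 0.0033). Cdca8, borealin of the same complex, and Cdc20, the activator of the anaphase-promoting complex, were 1.60-fold higher and 1.63-fold higher (adjusted p = 0.010 and 0.0020). Of genes without a call, Fen1, a flap endonuclease and the brightest of the list, read 3064 and 3373 against 5466 and 3365, and the untreated arrays lay far apart. Aurkb, the kinase of the passenger complex, was not called (adjusted p = 0.94). With median centring 11 cell cycle genes were higher, and without the first or the second untreated array 8 and 6. Thymocytes divide, the thymus lists moved with these genes, and the part of that tissue in the cell cycle genes was not tested.

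Promoters of mitotic genes carry CCAAT boxes and a cell cycle homology region (CHR), which repressor and activator complexes of the cell cycle bind. Both were searched as letters on both strands of the RefSeq promoters (GRCm38.p6, from 250 bases before to 50 after the gene start). CCAAT was present in 19 of 23 cell cycle genes with a promoter in the table (82.6%) and in 41.1% of all genes, and the CHR letters TTTGAA in 12 of 23 (52.2%) and 20.2% of all genes. Of the called genes with a promoter, 13 of 15 held CCAAT and 6 of 15 the CHR letters. Fen1, Mcm2, Cdk1, Kif11, Plk1 and Aurka, which were not called, hold the CHR letters as well. The promoters of Cdc20 and Ccnb2, mitotic genes that rose and hold both, are shown on the strand of the gene, with the matches in capitals. Cdc20 lies on the minus strand at chr4:118437294-118437593, and Ccnb2, which encodes cyclin B2, on the minus strand at chr9:70421505-70421804.
Cdc20: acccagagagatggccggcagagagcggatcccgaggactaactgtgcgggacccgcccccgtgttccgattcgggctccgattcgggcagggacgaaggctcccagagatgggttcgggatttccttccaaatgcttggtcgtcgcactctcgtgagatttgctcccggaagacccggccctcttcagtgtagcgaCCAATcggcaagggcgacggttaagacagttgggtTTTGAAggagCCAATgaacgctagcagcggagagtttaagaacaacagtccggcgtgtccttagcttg
Ccnb2: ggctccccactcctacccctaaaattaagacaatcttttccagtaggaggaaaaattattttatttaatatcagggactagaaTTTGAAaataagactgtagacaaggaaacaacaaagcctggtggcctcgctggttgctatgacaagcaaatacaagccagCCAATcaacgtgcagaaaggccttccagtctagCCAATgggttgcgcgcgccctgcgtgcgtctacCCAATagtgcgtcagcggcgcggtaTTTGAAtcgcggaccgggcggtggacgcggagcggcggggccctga
In Cdc20 the CHR match starts 18 bases before the gene start, between CCAAT matches that start 53 and 8 bases before it. In Ccnb2 the 3 CCAAT matches start 87, 54 and 21 bases before the gene start, and the CHR matches 167 bases before and 5 bases after it. None of the matches shown overlap. Ccnb2 read 418 and 438 on the vitamin E arrays and 313 and 289.8 on the untreated arrays and Cdc20 read 1077 and 971 against 651 and 606, so both were higher on each vitamin E array. A match of letters describes the sequence and says nothing of binding.

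**Figure D3:**
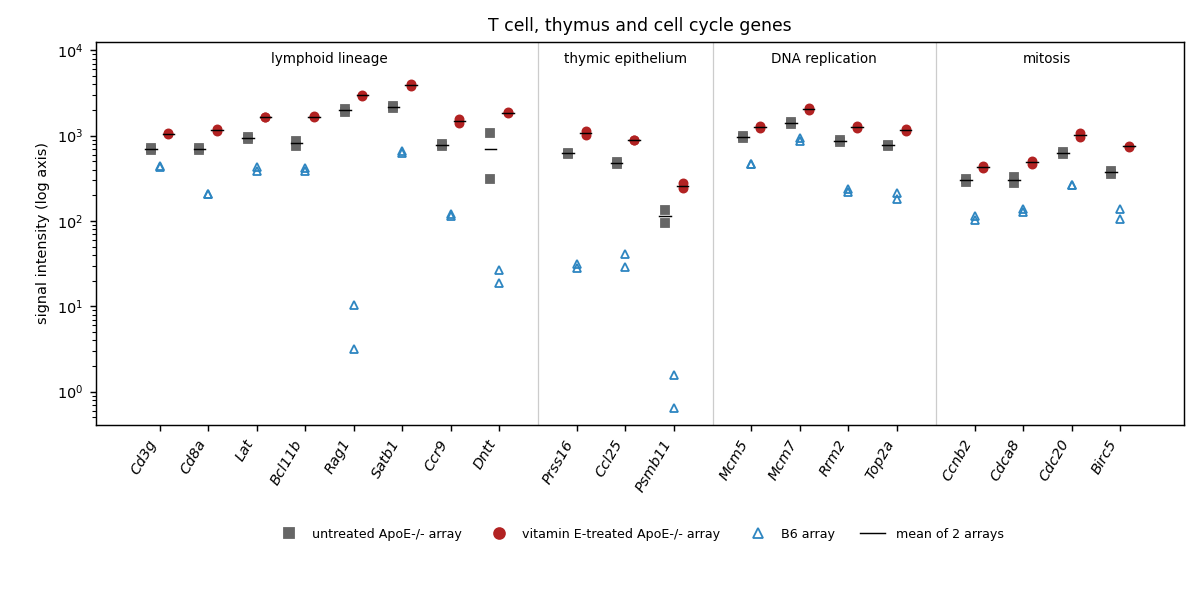
Signal intensity (y axis, log scale) of T cell, thymus and cell cycle genes (x axis) on each array, with the mean of 2 arrays as a bar for the ApoE-/- groups. Squares are untreated ApoE-/-, circles vitamin E-treated ApoE-/- and triangles B6 aortas. The circles lie above the squares for each gene drawn, and the squares of Dntt lie apart at 312 and 1075.

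Of B cell and plasma cell genes, 1 rose and 1 fell of 14 tested. Cd37, a tetraspanin of lymphocytes, was 1.24-fold higher and Mzb1, a chaperone of antibody secretion, 1.19-fold lower (adjusted p = 0.028 and 0.034), and neither was called without the first or the second untreated array. Of MHC class II genes none of 9 was called by limma, with 3 higher at an unadjusted p under 0.05, and Cd74, the invariant chain, read 8663 and 10446 on the vitamin E arrays and 8147 and 8620.3 on the untreated arrays. Of MHC class I genes, Tap2, a peptide transporter, was the only call of 11 (log2 fold change 0.33, adjusted p = 0.028), and 0 and 0 were called without the first or the second untreated array. Of leukocyte adhesion genes limma called 0 of 10, with 2 higher and 1 lower at an unadjusted p under 0.05. Vcam1, the adhesion molecule of activated endothelium, read 996 and 642 against 745 and 849, and Icam1 read 575 and 552 against 582 and 556, both with overlapping groups.

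Of macrophage genes 4 of 20 fell and 2 rose. Fcer1g, the signalling chain of Fc receptors, read 482 and 471 on the vitamin E arrays and 675 and 658 on the untreated arrays and was 1.4-fold lower (log2 fold change -0.48, SE 0.07, adjusted p = 0.0053). C1qa and C1qc, chains of complement C1q made by macrophages, fell by 0.24 and 0.27 on the log2 scale (adjusted p = 0.040 and 0.044). The most used macrophage markers did not pass the test. Cd68 read 413 and 414 against 476 and 479 (adjusted p = 0.12), Adgre1, the F4/80 antigen, had an adjusted p of 0.078, and Lyz2, lysozyme, one of 0.27. Laptm5, a lysosomal protein of blood cells, and Lyve1, a receptor of resident macrophages and lymph vessels, rose (1.26-fold higher and 1.19-fold higher). With the first or the second untreated array left out, 0 and 1 macrophage genes were lower, and without an intensity trend in the fit 1. The list sum was 23707 and 24639 against 25806 and 25818. Of genes of foam cell lipid handling 1 of 16 was called. It was Plin2, the coat protein of lipid droplets, with 4948 and 6008 against 6922 and 7166 (log2 fold change -0.37, adjusted p = 0.041), and 0 and 0 genes of this list were called without the first or the second untreated array. The cholesterol exporters Abca1 and Abcg1 were not called (adjusted p = 0.11 and 0.20), nor was the scavenger receptor gene Cd36 at its brightest probe set (0.59). Of the 3 probe sets of Cd36 tested 1 was called lower.

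Interferon-stimulated genes fell, 7 of 19 tested (36.8%) with none higher, at a median log2 fold change of -0.35. Rtp4, an inhibitor of viral replication, read 699.6 and 645 on the vitamin E arrays and 1081 and 1055 on the untreated arrays and was 1.59-fold lower (log2 fold change -0.67, SE 0.08, adjusted p = 0.0024). Ifit3, an RNA-binding antiviral protein, read 409 and 363 against 565 and 612 (log2 fold change -0.61, adjusted p = 0.0067). Its relative Ifit1 read 276 and 305 against 392 and 401 (log2 fold change -0.45, adjusted p = 0.018). The groups did not overlap for these genes. Xaf1, a pro-apoptotic interferon target, read 356 and 424 against 580.2 and 599 (log2 fold change -0.60, adjusted p = 0.019). Usp18, which ends interferon signalling, and Oasl2, of the oligoadenylate synthetase family, were both 1.47-fold lower (adjusted p = 0.013 and 0.022). Igtp, Gbp2 and Cxcl9, targets of interferon gamma, were not called (adjusted p = 0.59, 0.86 and 0.55). When the first or the second untreated array was left out, 2 and 1 genes of the list were lower.

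Interferon acts on these genes through the interferon-stimulated response element (ISRE). Its core, 2 GAAA runs with 2 bases of any kind between them, searched on both strands of the RefSeq promoters, was present in 11 of 15 genes of the list with a promoter in the table (73.3%) and in 3.99% of all genes. Of the called genes, 3 of 5 with a promoter held it. The promoters of Ifit1 and Ifit3, both called lower, are shown on the strand of the gene with the matches in capitals. They lie on the plus strand at chr19:34640639-34640938 and chr19:34583279-34583578.
Ifit1: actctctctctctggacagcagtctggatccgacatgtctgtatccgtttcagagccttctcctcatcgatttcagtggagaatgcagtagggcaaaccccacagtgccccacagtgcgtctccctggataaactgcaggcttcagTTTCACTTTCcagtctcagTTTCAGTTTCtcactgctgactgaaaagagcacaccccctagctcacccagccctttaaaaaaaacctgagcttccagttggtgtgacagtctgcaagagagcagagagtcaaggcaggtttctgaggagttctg
Ifit3: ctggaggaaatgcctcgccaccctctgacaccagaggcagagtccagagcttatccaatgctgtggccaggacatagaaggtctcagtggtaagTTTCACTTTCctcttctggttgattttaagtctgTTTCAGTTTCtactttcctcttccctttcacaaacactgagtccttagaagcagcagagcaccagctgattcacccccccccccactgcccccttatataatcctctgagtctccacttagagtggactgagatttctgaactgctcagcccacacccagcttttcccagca
In Ifit1 the matches start 104 and 85 bases before the gene start, and in Ifit3 156 and 122 bases before it. The strand shown holds the reverse complement of the core. Genes that were not called hold the core as well, Rsad2 (log2 fold change 0.23, adjusted p = 0.15) and Igtp among them.

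Of genes of chemokines and their receptors 3 of 14 fell and 1 rose. Ccl8, a monocyte attractant, read 257 and 346 on the vitamin E arrays and 557 and 569 on the untreated arrays, and was 1.89-fold lower (log2 fold change -0.92, SE 0.13, adjusted p = 0.0052). Ccl6, a chemokine of myeloid cells, read 389 and 358 against 673 and 552 (log2 fold change -0.71, adjusted p = 0.0066). Ccl9 of the same family read 344 and 325 against 443 and 512 (log2 fold change -0.51, adjusted p = 0.014). All 3 were lower on both vitamin E arrays. Cxcr4, the receptor for Cxcl12, rose, with 568 and 550.1 against 383 and 396 (log2 fold change 0.52, adjusted p = 0.0096). Ccr2, the receptor that brings monocytes into plaques, read 248 and 138 against 229.5 and 225 (adjusted p = 0.51), so the vitamin E arrays lay on both sides of the untreated ones. Of complement genes 3 of 9 fell. Serping1, the C1 inhibitor, read 1694 and 1719 against 2277 and 2422 and was 1.38-fold lower (log2 fold change -0.46, SE 0.06, adjusted p = 0.0038), Cd59a, which blocks the membrane attack complex, was 1.30-fold lower, and C3ar1, the receptor for C3a, was 1.99-fold lower but passed through the untreated group alone. Without the first or the second untreated array 1 and 0 complement genes and 3 and 2 chemokine genes were lower, and the rise of Cxcr4 was not called.

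Of elastic fibre genes, 8 of 16 tested fell (50%) and all 16 had a log2 fold change under 0, from -1.04 to -0.09. Eln, which encodes elastin, read 623 and 677 on the vitamin E arrays and 882 and 867 on the untreated arrays and was 1.35-fold lower (log2 fold change -0.43, SE 0.07, adjusted p = 0.0090). Mfap4, a microfibril glycoprotein, read 215 and 312 against 605 and 468 (log2 fold change -1.04, adjusted p = 0.012). Fbln1, fibulin 1 of elastic lamellae and adventitia, read 384 and 399.6 against 708 and 694 (log2 fold change -0.84, adjusted p = 0.00061). Each of these was lower on both vitamin E arrays. Loxl1, which crosslinks elastin, was 1.39-fold lower (adjusted p = 0.0040). Lox, Fbln5 and Emilin1, with roles in crosslinking and assembly, did not pass the test (adjusted p = 0.23, 0.10 and 0.59). With the first or the second untreated array left out, 2 and 3 elastic fibre genes were lower.

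Of collagen genes 7 of 18 fell and none rose. Col1a1, the main chain of fibrillar collagen I, read 731 and 715 on the vitamin E arrays and 1213 and 1163 on the untreated arrays and was 1.64-fold lower (log2 fold change -0.72, SE 0.07, adjusted p = 0.0011). Col1a2, its partner chain, read 3389 and 3813 against 4037 and 4233 and did not pass the test (adjusted p = 0.12). Col3a1, collagen III of the vessel wall, read 3863 and 3987 against 4826 and 4817 (log2 fold change -0.30, adjusted p = 0.022). Col15a1, of the basement membrane zone, and Col5a3, a chain of collagen V, were 1.82-fold lower and 1.69-fold lower. The collagen IV chains Col4a1 and Col4a2 and the collagen VI chains Col6a1, Col6a2 and Col6a3 were not called. Of metalloproteinases and their inhibitors 6 of 12 fell and 1 rose. Mmp12, the elastase of macrophages, read 58.5 and 56.7 against 118 and 99.3 (log2 fold change -0.91, adjusted p = 0.033) and passed through the untreated group alone. Timp1, an inhibitor induced in lesions, read 117 and 132 against 219.6 and 191 and was 1.65-fold lower (log2 fold change -0.72, SE 0.15, adjusted p = 0.022). Timp4, an inhibitor of heart and fat, rose (log2 fold change 0.30, adjusted p = 0.029), whereas Mmp14, Timp2 and Timp3 were not called. For Timp3 that holds for the brightest probe set, and of the 4 tested 1 was called lower. When the first or the second untreated array was left out, 2 and 2 collagen genes and 0 and 0 metalloproteinase genes were lower. Cartilage, whose genes fell on the same arrays, also makes matrix proteins, and its part in these lists was not tested.

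Contractile smooth muscle genes had a median log2 fold change of -0.18, with 7 of 21 lower and none higher at the brightest probe set of each gene. Over all 37 probe sets of these genes 10 were lower and 4 higher. Those higher were 3 of the 4 of Tpm2, whose log2 fold changes ran from 0.19 to 1.42, and 1 of the 3 of Synpo2. Gucy1a1, the nitric oxide receptor subunit, read 339 and 308 on the vitamin E arrays and 538 and 520.3 on the untreated arrays and was 1.64-fold lower (log2 fold change -0.71, SE 0.08, adjusted p = 0.0018). Myocd, the coactivator that drives the contractile program, read 154 and 158 against 211 and 237 (log2 fold change -0.52, adjusted p = 0.022). Myh11, smooth muscle myosin, read 1295 and 1346 against 1686 and 1664 (log2 fold change -0.34, adjusted p = 0.020). The brightest, Acta2, smooth muscle actin, read 8791 and 9530.2 against 9158 and 9773 with overlapping groups. The sum over the list was 38870 and 41323 against 42033 and 42629, and without the first or the second untreated array 1 and 1 of its genes were lower.

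Of endothelial genes 7 of 20 fell and none rose, with a median of -0.17. Vwf, von Willebrand factor, read 403 and 411 on the vitamin E arrays and 567 and 577 on the untreated arrays and was 1.41-fold lower (log2 fold change -0.49, SE 0.07, adjusted p = 0.0046). Nos3, endothelial nitric oxide synthase, read 370.4 and 435 against 554 and 539 (log2 fold change -0.44, adjusted p = 0.020). Robo4, a guidance receptor of endothelium, was 1.51-fold lower. Pecam1, Kdr and Cldn5, defining genes of the same cells, were not called (adjusted p = 0.97, 0.95 and 0.73), and the list sum was 7725 and 8440 against 9255 and 9122. Of adventitial fibroblast genes 5 of 14 fell, Fbln1 and Serpinf1, which encodes an antiangiogenic serpin, among them (log2 fold change -0.43, adjusted p = 0.020 for the latter). Gsn and Dcn, the brightest fibroblast genes, were not called (adjusted p = 0.97 and 0.44). Without the first or the second untreated array 1 and 1 endothelial and 1 and 1 fibroblast genes were lower, and without the first or the second vitamin E array 3 and 4 endothelial genes.

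**Figure D4:**
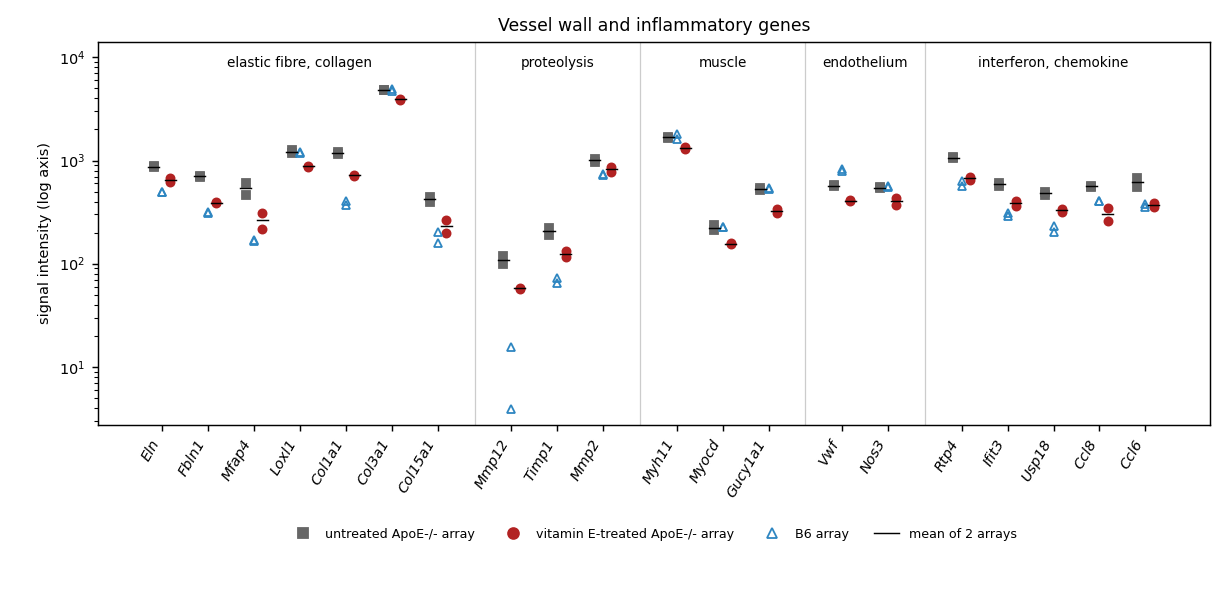
Signal intensity (y axis, log scale) of matrix, protease, smooth muscle, endothelial, interferon-stimulated and chemokine genes (x axis) on each array, with the mean of 2 arrays as a bar for the ApoE-/- groups. Squares are untreated ApoE-/-, circles vitamin E-treated ApoE-/- and triangles B6 aortas. The circles lie below the squares for each gene drawn.

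Genes of fatty acid synthesis fell, 7 of 19 tested against 1 that rose. Me1, malic enzyme, which supplies NADPH, read 4179 and 4275 on the vitamin E arrays and 7060.3 and 7098 on the untreated arrays and was 1.68-fold lower (log2 fold change -0.74, SE 0.06, adjusted p = 0.00044). Mlxipl, the glucose-responsive factor ChREBP, read 821 and 852 against 1267 and 1266 (log2 fold change -0.60, adjusted p = 0.0011). Elovl6, an elongase of palmitate, read 3569 and 3761 against 5425 and 5522 (log2 fold change -0.58, adjusted p = 0.0017). Every untreated array lay above every vitamin E array. Srebf1, the factor SREBP1 that activates this pathway, was 1.31-fold lower (adjusted p = 0.012). The brightest members did not follow. Scd1, stearoyl-CoA desaturase, read 11491 and 16891 against 11250 and 12144 (adjusted p = 0.32). Fasn, fatty acid synthase, read 10899 and 14548 against 11146 and 11982 (adjusted p = 0.55), while Scd2, the other desaturase, was 1.47-fold lower. Elovl1, an elongase of very long chains, rose (log2 fold change 0.38, adjusted p = 0.011). With the first or the second untreated array left out, 4 and 4 genes of the list were lower and Elovl1 was not called.

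Sterol synthesis genes fell in the same number, 7 of 19, with 1 higher. Pmvk, phosphomevalonate kinase, read 426 and 401 on the vitamin E arrays and 757 and 792 on the untreated arrays and was 1.87-fold lower (log2 fold change -0.90, SE 0.07, adjusted p = 0.00044). Lss, lanosterol synthase, read 305 and 279.6 against 448 and 512 (log2 fold change -0.71, adjusted p = 0.0043). Nsdhl, a demethylation enzyme, read 542 and 561 against 834 and 875 (log2 fold change -0.63, adjusted p = 0.0016). Both vitamin E arrays were lower for these enzymes. Hmgcs1, which condenses the first committed intermediate, moved the other way with 3679.7 and 3802 against 3154 and 3065 (log2 fold change 0.27, adjusted p = 0.028). When the first or the second untreated array was left out, 3 and 4 sterol genes were lower and Hmgcs1 was not called. Sqle, Cyp51, Idi1 and Fdft1 of the same pathway were not called (adjusted p = 0.48, 0.86, 0.98 and 0.38).

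Of genes of fatty acid oxidation 3 of 20 rose and 1 fell. Pdk4, the kinase that holds pyruvate out of the citric acid cycle, read 4256 and 4045 on the vitamin E arrays and 2907 and 2992 on the untreated arrays and was 1.41-fold higher (log2 fold change 0.49, SE 0.06, adjusted p = 0.0033). Cpt1a, which admits acyl groups to mitochondria, read 510.3 and 559 against 398 and 374 (log2 fold change 0.47, adjusted p = 0.012). Ppara, the nuclear receptor of the pathway, read 940.3 and 966 against 815 and 790.1 (log2 fold change 0.25, adjusted p = 0.033). Cpt2, the partner of Cpt1a on the inner membrane, fell, with 2391 and 2661 against 3127 and 3109 (log2 fold change -0.31, adjusted p = 0.027). The dehydrogenases Acadm, Acadl and Acadvl were not called (adjusted p = 0.70, 0.46 and 0.91). Without the first or the second untreated array 1 and 1 oxidation genes were higher and 0 and 0 lower, and without the second vitamin E array 6 were lower.

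Of fat cell genes 2 of 17 rose and 4 fell. Pck1, phosphoenolpyruvate carboxykinase, which makes glycerol for triglycerides in fat, read 3933 and 3489 on the vitamin E arrays and 2027 and 1967 on the untreated arrays and was 1.86-fold higher (log2 fold change 0.89, SE 0.07, adjusted p = 0.00044). Lep, which encodes leptin, read 222 and 207 against 353 and 407 (log2 fold change -0.82, adjusted p = 0.0043). Slc2a4, the insulin-responsive glucose transporter, read 1733 and 1809 against 2699 and 3099.7 (log2 fold change -0.71, adjusted p = 0.0020). The vitamin E arrays were higher for Pck1 and lower for Lep and Slc2a4. Adipoq and Fabp4, the defining and brightest fat cell genes, were not called (adjusted p = 0.37 and 0.58). Per the labels the aortas were freed of fat, and no value here tests how fully. Of brown fat genes 2 of 12 rose and 3 fell. Ucp1, the uncoupling protein, read 6371 and 7911 against 7582 and 7557 (adjusted p = 0.58), whereas Elovl3, an elongase induced by cold, was 2.13-fold lower (log2 fold change -1.09, adjusted p = 0.00018). The list sum was 34231 and 38276 against 39490 and 39518. Of oxidative phosphorylation genes 4 of 34 fell, and Cox6a2 and Cox7a1, the muscle and heart forms of cytochrome oxidase subunits, led them (log2 fold changes -0.49 and -0.49). That count was 5 and 13 without the first or the second vitamin E array and 1 and 1 without the first or the second untreated array, and without the first vitamin E array 8 were higher. For white fat genes 2 and 2 were lower without the first or the second untreated array.

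Antioxidant genes, the closest to the treatment, held calls in both directions. Of 27 tested, 6 fell and 2 rose. Of all genes 7.96% were called lower and 8.31% higher, so the rises were no more frequent here than over all genes. Sod3, the extracellular superoxide dismutase of the arterial wall, read 987 and 1027 on the vitamin E arrays and 1631 and 1595 on the untreated arrays, which was 1.60-fold lower (log2 fold change -0.68, SE 0.06, adjusted p = 0.00075). Prdx3, a mitochondrial peroxiredoxin, read 2156 and 2208 against 2959.5 and 2896 (log2 fold change -0.42, adjusted p = 0.0043). Txn2, the mitochondrial thioredoxin, read 1133 and 1262 against 1545 and 1745 (log2 fold change -0.46, adjusted p = 0.013). Txnrd2, its reductase, read 401 and 430.3 against 556 and 580.3 (log2 fold change -0.45, adjusted p = 0.017). The 2 other probe sets of Txn2 and the 3 others of Txnrd2 that were tested were not called. At the probe sets given for these genes the groups did not overlap. Pgd, an NADPH source of the pentose phosphate pathway, was 1.39-fold lower, and Prdx4, the peroxiredoxin of the endoplasmic reticulum, 1.25-fold lower. With the first or the second untreated array left out, 2 and 2 antioxidant genes were lower, and without the first vitamin E array 9 were lower and 4 higher.

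Glrx, cytosolic glutaredoxin, rose, with 709 and 605 on the vitamin E arrays and 369 and 436 on the untreated arrays, which was 1.63-fold higher (log2 fold change 0.71, SE 0.11, adjusted p = 0.0064). Gss, glutathione synthetase, read 248 and 259 against 201 and 189 (log2 fold change 0.38, adjusted p = 0.041). Several targets of Nrf2, the regulator of the oxidant response, were not called. Hmox1, heme oxygenase 1, read 139 and 119 against 113 and 130.3, and Nqo1, quinone oxidoreductase, 105 and 132 against 104 and 173, so both stayed close to the minimum of 100 and their groups overlapped. Srxn1, Gclm, Gclc and Txnrd1 had adjusted p values of 0.87, 0.88, 0.11 and 0.074. Of the 2 brightest genes of the list, Pgd was lower as given above. The other, Gpx4, which reduces lipid hydroperoxides in membranes, was not called (adjusted p = 0.80). Gpx3, the plasma glutathione peroxidase, was not called either (0.50). Sod1, Sod2 and Cat, which encodes catalase, also missed the threshold at their brightest probe sets (0.45, 0.071 and 0.39). Of the 3 probe sets tested for Sod1 1 was called lower, with log2 fold changes from -0.34 to 0.34. For Sod2 1 of 3 was called lower as well (-0.59 to -0.21). The ARE core TGACNNNGC, the letters shared by sites of Nrf2, was present on either strand in 6 of 23 promoters of the list (26.1%) and in 14.0% of all genes, and Pgd was the 1 called gene among the 6.

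Of glutathione S-transferases 3 were higher and 3 lower of 19. Gsta2 and Gstm3, isoforms that conjugate electrophiles, rose (1.91-fold higher and 1.57-fold higher) but passed through the vitamin E group alone, and Gsta4, which detoxifies the lipid peroxidation product 4-hydroxynonenal, read 1749.6 and 1814 on the vitamin E arrays and 1362 and 1325 on the untreated arrays (log2 fold change 0.41, adjusted p = 0.0096). Gstk1, the mitochondrial form, read 639 and 707 against 909.5 and 902 (log2 fold change -0.43, adjusted p = 0.0091). Of NADPH oxidase genes 1 of 8 was called. It was Nox4, the catalytic subunit of vessel wall cells, with 151 and 147 against 222 and 188 (log2 fold change -0.46, adjusted p = 0.041). Cybb, the catalytic subunit of phagocytes, read 547 and 562 against 647 and 635 (adjusted p = 0.10). When the first or the second untreated array was left out, 0 and 0 oxidase genes and 0 and 0 transferase genes were lower, and 1 and 1 transferase genes higher.

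Of genes that handle vitamin E itself, 2 of 12 tested were lower and 1 higher (25% called), where 16.3% of all genes were called. Sec14l3, a lipid-binding protein of the tocopherol-associated family expressed in airways, read 1189.5 and 1195 on the vitamin E arrays and 1818 and 1792 on the untreated arrays and was 1.51-fold lower (log2 fold change -0.60, SE 0.07, adjusted p = 0.0016). Lrp1, a receptor for lipoprotein remnants, was 1.23-fold lower (log2 fold change -0.29, adjusted p = 0.043) and lost the call in 8 of 13 alternatives. Of these genes 1 and 1 were lower and 1 and 1 higher without the first or the second untreated array. Cyp3a11, a cytochrome P450 of liver, read 105 and 123 against 24.8 and 26.1 (log2 fold change 2.16, adjusted p = 0.00025), and the B6 arrays had 758 and 640. It passed through the vitamin E group alone and is a member of the liver list too. The lipoprotein receptor gene Scarb1 and the transfer protein gene Pltp were not called (adjusted p = 0.34 and 0.36). Of metal and iron genes 4 of 15 fell and 2 rose, and without the first or the second untreated array 2 and 2 were lower and 0 and 0 higher. Steap4, a metalloreductase, read 543 and 739.9 against 1652 and 1295 and was 2.31-fold lower (log2 fold change -1.21, SE 0.16, adjusted p = 0.0035). Hamp, which encodes the iron hormone hepcidin, read 266 and 325 against 516 and 535 (log2 fold change -0.84, adjusted p = 0.0025). Slc40a1, the iron exporter that hepcidin degrades, read 467 and 435 against 364 and 331 (log2 fold change 0.38, adjusted p = 0.028). Mt2, a metallothionein, rose (log2 fold change 0.43, adjusted p = 0.037) and Mt1 did not pass the test (0.19).

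**Figure D5:**
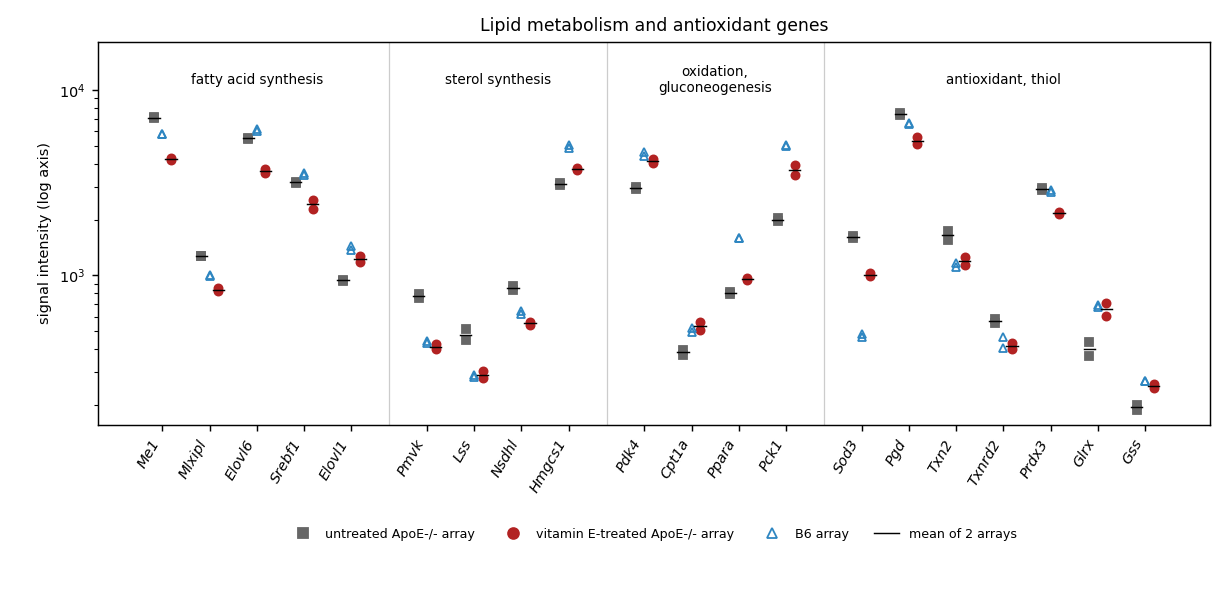
Signal intensity (y axis, log scale) of lipid metabolism and antioxidant genes (x axis) on each array, with the mean of 2 arrays as a bar for the ApoE-/- groups. Squares are untreated ApoE-/-, circles vitamin E-treated ApoE-/- and triangles B6 aortas. The circles lie above the squares for Elovl1, Hmgcs1, Pdk4, Cpt1a, Ppara, Pck1, Glrx and Gss and below them for the other genes drawn.

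Of genes of sympathetic neurons 9 of 15 tested rose (60%) and none fell. Of the 15, 3 passed through the vitamin E group alone. The study reports no significant change with vitamin E in its own nerve probe sets, which it chose by their fall against B6. For protein, it reports that vitamin E did not prevent the decrease of Snap25 or substantially that of Npy staining. Ddc, the decarboxylase of catecholamine synthesis, read 727 and 748 on the vitamin E arrays and 463 and 443 on the untreated arrays and was 1.63-fold higher (log2 fold change 0.70, SE 0.07, adjusted p = 0.00085). Th, the rate-limiting hydroxylase, read 544 and 548 against 453 and 407 (log2 fold change 0.35, adjusted p = 0.025). Slc6a2, the noradrenaline transporter, read 1820.4 and 1940.2 against 1332 and 1272 (log2 fold change 0.53, adjusted p = 0.0025). Each vitamin E array lay above each untreated one, and the B6 arrays read 3940.3 and 3818 for Slc6a2. Isl1, a factor of sympathetic neuron development, and Chga, the granule protein chromogranin A, were 1.60-fold higher and 2.16-fold higher, the latter passing through the vitamin E group alone. Of general neuronal genes 8 of 21 rose, among them Scg3, which passed through the vitamin E group alone. Tubb3, neuronal tubulin, read 319 and 317 against 205 and 229 (log2 fold change 0.55, adjusted p = 0.010). Rab3a, a synaptic vesicle GTPase also made in other secretory cells, fell at 1 of 2 probe sets, with 890.5 and 1221 against 1529 and 1703 (log2 fold change -0.63, adjusted p = 0.028). The other had a log2 fold change of -0.03 and was not called, and the call was lost in 5 of 13 alternatives. With median centring 4 sympathetic and 3 general neuronal genes were higher, and without the first or the second untreated array 4 and 3 sympathetic and 2 and 1 general neuronal genes. Schwann cell genes were divided, 2 higher and 2 lower of 9. S100b, a calcium-binding protein of glia, cartilage and fat, was 1.57-fold lower and Pmp22, peripheral myelin protein 22, 1.31-fold lower, while Cnp, an enzyme of myelin, and Ngfr, the low-affinity neurotrophin receptor, were 1.30-fold higher and 1.31-fold higher. Of Schwann cell genes 0 and 0 were higher and 1 and 1 lower without the first or the second untreated array.

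Immediate early genes, which respond within minutes to handling and to growth signals, rose in 7 of 24 cases and fell in 1. Nr4a1, an orphan nuclear receptor, read 879.9 and 934 on the vitamin E arrays and 449 and 485 on the untreated arrays and was 1.94-fold higher (log2 fold change 0.96, SE 0.07, adjusted p = 0.00033). Egr1, a zinc finger factor, read 2031 and 2558 against 1509 and 1418 (log2 fold change 0.64, adjusted p = 0.0089). Fos, a subunit of AP-1, read 756 and 704 against 538 and 568 (log2 fold change 0.40, adjusted p = 0.022). The groups did not overlap for these. Jun, Junb and Atf3 were not called (adjusted p = 0.99, 0.51 and 0.96). The median of the list was 0.075 and turned to -0.01 with median centring, so it carries no direction. Without the first or the second untreated array 4 and 3 genes of the list were higher and 0 and 0 clock genes lower. Of clock genes 2 of 16 fell. Dbp, an output factor of the clock, read 1943 and 1684 against 2458 and 2381 (log2 fold change -0.42, adjusted p = 0.015). Cry2, a repressor, read 238 and 219 against 327 and 317 (log2 fold change -0.50, adjusted p = 0.020), whereas Arntl, which encodes BMAL1, read 194 and 208 against 155 and 96.0 (adjusted p = 0.069). The labels do not give the hour at which the aortas were taken.

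Of heat shock genes 4 of 21 fell, with Hspb8, a small chaperone, the furthest (log2 fold change -0.35, adjusted p = 0.015). Of genes of endoplasmic reticulum stress 1 of 22 was called, Pdia4, a disulfide isomerase, with 270.2 and 259.6 on the vitamin E arrays and 452 and 440.4 on the untreated arrays (log2 fold change -0.75, adjusted p = 0.0026). Hspa5, the chaperone BiP, read 4322 and 4569.8 against 4407 and 4726 (adjusted p = 0.74). Of proteasome genes 1 of 28 was called, Psmd8 (log2 fold change -0.37, adjusted p = 0.010), and of lysosomal cathepsins and their inhibitor 2 of 14 fell, Ctsf and Ctsh (log2 fold changes -0.38 and -0.27). With the first or the second untreated array left out, 0 and 0 heat shock genes, 0 and 0 proteasome genes and 0 and 0 cathepsin genes were lower, and without the first vitamin E array 4 genes of endoplasmic reticulum stress and 4 of the proteasome. Of ribosomal protein genes limma called 0 of 23, with 6 higher at an unadjusted p under 0.05 and a median log2 fold change of 0.18. Without the first vitamin E array 17 of them were called higher, so this list rests on which vitamin E array is used.

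Outside the lists, Defb4, an epithelial defensin, had the largest rise among named genes with at least 200 on each vitamin E array. It read 1365 and 1446 on the vitamin E arrays and 374 and 354 on the untreated arrays and was 3.86-fold higher (log2 fold change 1.95, SE 0.07, adjusted p = 1.5e-05). Csta1 and Klk13, a protease inhibitor and a protease of stratified epithelium, and Crabp2, a retinoic acid carrier, were 3.85-fold higher, 3.66-fold higher and 3.60-fold higher. Csta1 and Crabp2 passed through the vitamin E group alone and could only be called higher. Aldh3a1, an aldehyde dehydrogenase of epithelia that removes lipid aldehydes, read 2123 and 2083 against 725 and 679.7 (log2 fold change 1.58, adjusted p = 2.1e-05). Trdn, triadin of the muscle calcium release unit, read at 1 probe set 874 and 786 against 315 and 189.7 (log2 fold change 1.76, adjusted p = 0.0020). The probe sets of Trdn disagreed, since of the 4 others tested 1 was called higher (log2 fold change 0.67), 2 were called lower (-1.66 and -1.31) and 1 was not called (0.25). No direction is therefore given for the gene. Slc2a5, a fructose transporter, was among the largest falls and read 197 and 203 against 687 and 695 and was 3.45-fold lower (log2 fold change -1.79, SE 0.17, adjusted p = 0.00085). Acot11, a thioesterase of brown fat, read 1286 and 1172 against 2994 and 3159 (log2 fold change -1.32, adjusted p = 7.2e-05). Corin, the protease that activates natriuretic peptides, and Popdc2, a cyclic AMP binding protein of heart muscle, were 2.61-fold lower and 2.51-fold lower, beside the fall of the cardiac list. The antibody segment Igkv6-20 read 102 and 68.3 against 401 and 492 (log2 fold change -2.41, adjusted p = 0.00094) and passed through the untreated group alone, and probe sets of such segments share sequence with their relatives. Polr3k, a subunit of RNA polymerase III, read 58.7 and 87.2 against 265 and 2985 (log2 fold change -3.64, adjusted p = 0.041), so the untreated arrays lay far apart, and under the alternatives its log2 fold change ran from -5.38 to -1.89. It passed through the untreated group alone. The 3 other probe sets of Polr3k that were tested had log2 fold changes of 0.21, -0.26 and -0.22 and were not called.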

How the data were processed

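Gene expression was measured with 6 Affymetrix MG430 2.0 arrays, 2 per group. The deposited values are signal intensities on a linear scale, which the authors computed per probe set with GCOS and scaled per array to a target value of 200. Presence calls were not used here, and a minimum signal stood in for them. Groups were taken from the sample titles. Where nothing says that the arrays of a group hold separate pools, p-values measure only the spread between these arrays, which may be technical, and their number limits the precision.

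Signals under a floor of 20 were set to 20 and log2 values were fitted with limma 3.58.1 in R 4.3.3 (lmFit, and eBayes with an intensity trend) over all 6 arrays, which leaves 3 residual degrees of freedom. Folds are therefore on a floored scale and understate the change of dim genes. Tested were 17368 probe sets with a mean of at least 100 in the vitamin E or the untreated group, with Benjamini-Hochberg adjustment over all of them. Gene names came from the platform annotation, updated through RefSeq by gene ID for 34741 of 34945 probe sets with 1 symbol. Another 932 had several symbols and 9160 none, and these were not named. Each gene was read through its brightest probe set. Of 304 list genes with several probe sets tested, 0 had calls in both directions.

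The 52 lists hold 1059 entries, of which 809 were tested, 158 stayed under the minimum and 92 had no probe set with 1 symbol. The comparison, the lists and the choice of motifs were made with earlier results of these data known, so no list was tested and each is described by its counts and median. Named genes are the 2 brightest of a list and the 3 with the largest change among calls whose groups do not overlap, and outside the lists the largest rises and falls with at least 200 on each array of the higher group. Further genes are named for their role in a list or as markers of tissue content, and those were chosen after their values were seen. The script was tested on simulated data. Alternatives covered normalization, floor, filter, moderation, samples, block, single arrays, probe sets and the methods' t-test.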

Additional observations from a re-analysis of the deposited data

How the results depend on the processing

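The count of 2774 calls moved by over 1.5 times in 9 of 19 alternatives. It was 949 with no filter on low signals, where more probe sets were tested, 1820 with the 4 ApoE-/- arrays alone and 1825 with 1 probe set per gene, and it ran from 799 to 3520 when a single array was left out. The methods' t-test left 0 calls after Benjamini-Hochberg adjustment on the log2 scale and 0 on the linear scale, with 3502 and 3500 probe sets at an unadjusted p under 0.05, where limma had 5571. The thresholds of the methods, an unadjusted p of at most 0.01 and at least 2-fold, were passed by 375 probe sets with limma, by 211 with 1 probe set per gene, and with the methods' t-test by 179 on the log2 scale and 177 on the linear scale. In the other alternatives that count stayed between 295 and 467. The higher calls made up 54.4% of all calls, and 32.6% after median centring, which moved the median log2 fold change to -0.083.

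The differences between the first and the second array correlated at 0.0569 for vitamin E and untreated, -0.102 for vitamin E and B6, and 0.0565 for untreated and B6. These values show little pairing of arrays by number, but they cannot show whether arrays shared a run. With the replicate number as a block 2186 probe sets were called. Of 168 genes called among those the naming rule allowed, 93 kept the call in each of 13 alternatives and 75 lost it in at least 1. Cox8b, which was not called, ran from -0.138 to 0.129 over single arrays left out, with the latter value and an adjusted p of 0.0422 without the first vitamin E array, and the median of immediate early genes turned to -0.01 with median centring. Of the list medians, 735 values stayed within the spread between arrays and 97 moved beyond it. With 2 arrays a group and pooled RNA, a gene without a call may still differ. The cause of these changes was not tested.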
